A study of Mus musculus with 15 samples.

Results

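The genes described here are 34 mouse genes of the interferon response and of antigen presentation by class I molecules of the major histocompatibility complex (MHC). They were taken by symbol from a list, and all 34 were found in both deposited tables, among 23118 genes in preadipocytes and 23347 genes in progenitors. The samples are bulk RNA from adipocyte precursors, which give rise to fat cells, sorted out of subcutaneous fat of C57Bl/6 pups. The pups were wildtype, were cross-fostered, and drank milk whose polyunsaturated fatty acids had either a low or a high n6/n3 ratio. One protocol gives 12 days of exposure and another gives 10 days, and no other age is stated. CD24- cells are named preadipocytes, with 4 libraries on low-ratio milk (numbers 108, 114, 119 and 133) and 3 on high-ratio milk (1015, 1017 and 1019). CD24+ cells are named progenitors, with 4 libraries on low-ratio milk (the same 4 numbers) and 4 on high-ratio milk (1015, 1017, 1018 and 1019). For the 4 preadipocyte libraries on low-ratio milk, another label field names the high ratio; the grouping follows the stated fatty acid ratio, which for those numbers matches the label of the progenitors. The labels do not say how many pups a library holds, so each p-value measures the spread between libraries, which may be in part technical.

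Interferons are secreted proteins that cells release on meeting viral or other foreign nucleic acids. Type I interferons signal through the kinases JAK1 and TYK2 to a complex that contains STAT2 and IRF9 and binds the interferon-stimulated response element (ISRE) of target promoters, while targets of interferon gamma carry the gamma-activated sequence (GAS). The targets include RNA sensors, antiviral proteins and the parts of the pathway that cuts proteins into peptides and shows them on class I molecules. Most nucleated cells, stromal cells of fat among them, express class I molecules and a low level of many interferon-stimulated genes in the absence of infection.

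Promoter sequence was looked up for the members. They were listed as genes of the interferon response, whose targets carry these motifs, so a share above that of all genes is not independent of the choice. RefSeq promoter windows on GRCm38.p6 were matched for 29 of the 34 members; Usp18, Ifi27, Mx1, Mx2 and Parp14 had no entry. The ISRE core was searched as GAAA, any 2 bases, GAAA on both strands in the 250 bases before the start, where overlapping matches were each counted. It was found for 12 of the 29 members, against 3.46% of 27025 genes with a window. The GAS core was searched as TTCNNNGAA, which reads the same on both strands. It was found for 6 of the 29 members, against 8.13% of those genes. The 6 stretches printed next show the arrangements: overlapping ISRE cores (Isg15), a pair on the minus strand (Ifit1 and Ifit3), a single core (B2m), a GAS core (Irf1), and the ISRE core of Ifi205, the pathway gene outside the list with the smallest p in preadipocytes. Each runs 5′ to 3′ on the strand of its gene and is 150 bases long, within the window searched, and capitals mark the motif. In Ifit1 and Ifit3 the match is on the opposite strand and reads TTTC, any 2 bases, TTTC.
Isg15 (chr4:156200874-156201023, minus strand): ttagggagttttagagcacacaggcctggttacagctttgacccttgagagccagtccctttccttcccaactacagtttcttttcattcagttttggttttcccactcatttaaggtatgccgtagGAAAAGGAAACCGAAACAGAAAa
Ifit1 (chr19:34640684-34640833, plus strand): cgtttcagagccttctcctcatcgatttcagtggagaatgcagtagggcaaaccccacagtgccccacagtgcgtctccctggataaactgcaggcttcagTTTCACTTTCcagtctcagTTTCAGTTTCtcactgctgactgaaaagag
Ifit3 (chr19:34583324-34583473, plus strand): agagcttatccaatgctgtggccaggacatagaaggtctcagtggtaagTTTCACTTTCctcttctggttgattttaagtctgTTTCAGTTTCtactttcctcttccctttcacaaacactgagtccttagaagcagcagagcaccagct
B2m (chr2:122147482-122147631, plus strand): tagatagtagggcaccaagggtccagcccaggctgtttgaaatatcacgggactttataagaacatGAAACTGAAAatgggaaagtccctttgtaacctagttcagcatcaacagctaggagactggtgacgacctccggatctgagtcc
Irf1 (chr11:53769809-53769958, plus strand): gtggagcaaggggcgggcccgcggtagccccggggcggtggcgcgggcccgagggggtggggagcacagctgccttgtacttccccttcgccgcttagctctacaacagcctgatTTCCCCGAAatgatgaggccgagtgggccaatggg
Ifi205 (chr1:174031811-174031960, minus strand): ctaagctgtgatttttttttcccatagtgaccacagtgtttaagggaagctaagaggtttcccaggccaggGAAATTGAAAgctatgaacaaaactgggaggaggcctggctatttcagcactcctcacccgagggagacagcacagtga
A match is a description of the letters only, and the members that carry an ISRE core include genes with fold changes of either sign, among them Isg15, Ifit1, Ifit3 and B2m.

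The libraries differed in depth, and this bears on the low-count members. The tables give no read totals, and depth was estimated roughly at 34.8 to 49.2 M reads for preadipocytes on low-ratio milk and at 13.6 to 68.4 M for those on high-ratio milk, with library 1015 the shallowest. In progenitors it was estimated at 33.9 to 39.0 M on low-ratio milk and 39.9 to 58.7 M on high-ratio milk. The 8 precursor markers, mostly through Col1a1, summed to 2460467 to 3288309.8 normalized counts in preadipocytes on low-ratio milk and 1946854 to 2378788 in those on high-ratio milk, without overlap. In progenitors they summed to 4034530.0 to 4793298 on low-ratio milk and 4806347 to 5065381 on high-ratio milk, also without overlap but in the other direction. Among all single genes tested, the milk groups did not overlap for 21.1% in preadipocytes and 4.04% in progenitors. Cd24a, the gene of the sort marker, had 562 to 720 normalized counts in preadipocytes and 1836 to 2676 in progenitors, in tables normalized separately. Markers of leukocytes summed to 151 to 337 normalized counts over 5 genes in preadipocytes and 112 to 719 in progenitors, and Ptprc, the common leukocyte antigen, had at most 106. The 7 macrophage markers summed to 463 to 986 in preadipocytes on low-ratio milk and 710.1 to 817 in those on high-ratio milk, and to 851 to 1500 and 756 to 911 in progenitors. Lists of 5 dendritic cell, 6 T and NK cell, 3 B cell, 3 neutrophil and 4 epithelial markers summed to at most 91.2 in any library. The 5 endothelial markers summed to 8424 to 12145 in preadipocytes on low-ratio milk and 6391 to 8192 in those on high-ratio milk, without overlap. Most of that sum was Tek, which was higher by 0.61 ± 0.13 on the log2 scale in preadipocytes (SE, adjusted p = 0.0469, limma), while the median of the 5 was -0.15 with 2 above 0. In progenitors the endothelial median was 0.56 with 4 of 5 above 0. There 3 had an unadjusted p under 0.05, against 6.88% of all genes. The 5 erythroid markers were all below 0 in both populations, with medians of -1.01 in preadipocytes and -0.62 in progenitors. In preadipocytes 4 of them had an unadjusted p under 0.05, against 21.7% of all genes. Erythroid sums were 1184 to 2282 in preadipocytes on low-ratio milk and 1991 to 7664 in those on high-ratio milk. Sums of the 4 mural, 4 adipocyte and 4 Schwann cell markers overlapped between milks in both populations. The part of these markers in the results was not tested.

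Normalized counts per kilobase of median transcript length put the same 6 members at the top in both populations. In preadipocytes the mean level was 18611 for B2m, 16167 for Irf1, 15520 for H2-D1, 11569 for Ifitm2, 7479 for H2-K1 and 7350 for Ifitm3. In progenitors it was 18020 for B2m, 15328 for Irf1, 11933 for H2-D1, 11823 for Ifitm2, 6401 for Ifitm3 and 5902 for H2-K1. All 6 lay above the 95th percentile of the genes tested in the same table, the lowest being H2-K1 in progenitors at 95.6. They held 80.8% to 83.6% of all member counts in the preadipocyte libraries and 80.4% to 85.1% in the progenitor libraries. The neighbours in this order that do not differ beyond the spread of libraries include H2-K1 and Ifitm3 in both populations, whose order turns between the tables. The lowest 4 in both populations were Mx2, Rsad2, Oas1a and Mx1, genes of the classical antiviral response, with 6.29 (Mx1 in progenitors) to 28.2 (Mx2 in preadipocytes) counts per kilobase. Between these ends lay 24 members, led by Ifi27, Bst2 and Stat2 in that order in both tables. The members took 0.184% to 0.216% of the normalized counts of preadipocyte libraries on low-ratio milk and 0.185% to 0.210% of those on high-ratio milk. In progenitors the share was 0.145% to 0.171% on low-ratio milk and 0.145% to 0.160% on high-ratio milk, so the ranges of the milks overlapped in both populations.

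**Figure D1:**
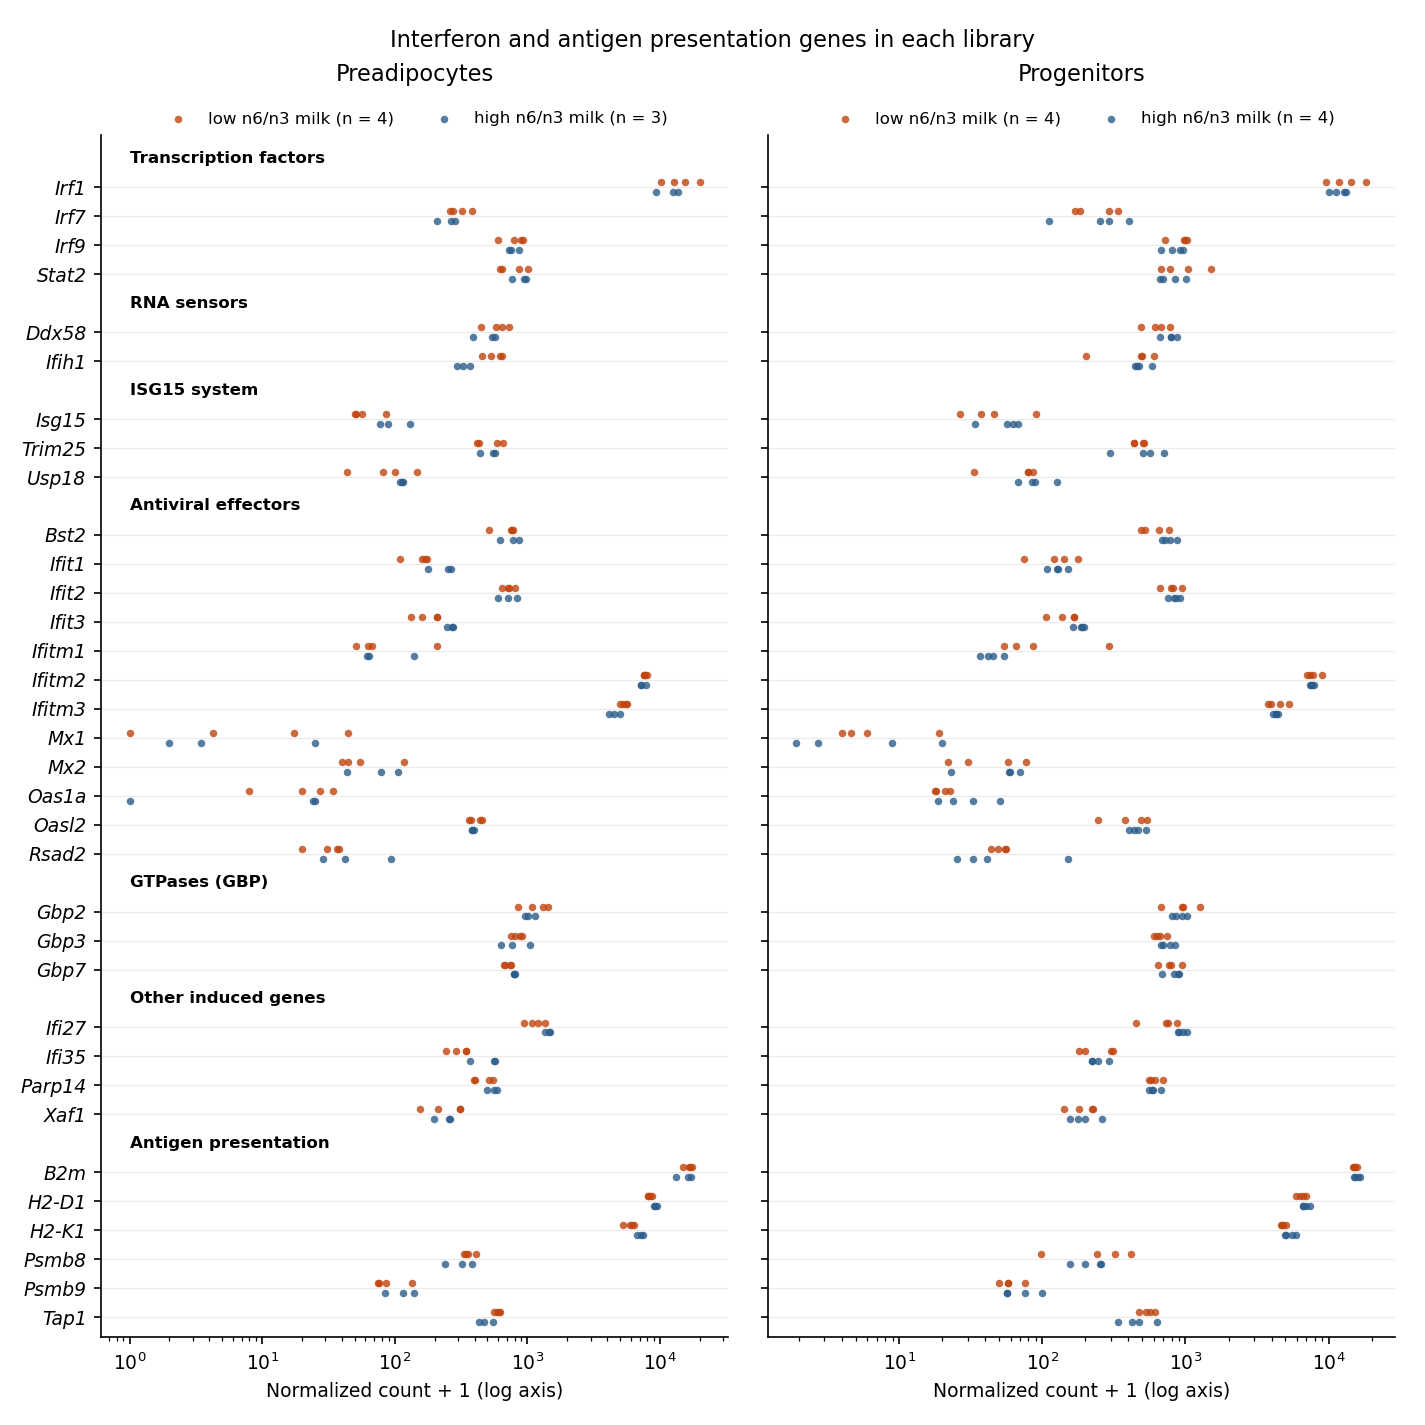
Normalized count plus 1 (log axis) of each of the 34 genes in each library, grouped by role, with libraries on low-ratio milk in red above those on high-ratio milk in blue. B2m, Irf1, H2-D1, Ifitm2, H2-K1 and Ifitm3 stand at the right in both panels, and Mx1, Oas1a and Rsad2 at the left with wide scatter.

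The milk comparison asks whether the fatty acid ratio taken in early life goes with a different expression level. None of the members passed the test in either population or in the difference between populations. In preadipocytes 0 of 34 members were called at an adjusted p of 0.05 (limma on log2 normalized counts plus 1, Benjamini-Hochberg over all genes tested), where 2.88% of 15893 genes were called. At an unadjusted p under 0.05 there were 7 of 34 members (20.6%), against 21.7% of all genes. The groups did not overlap for 9 members (26.5%), against 21.1% of all genes. Of these, 3 were higher on low-ratio milk (Ifih1, Ifitm3 and Tap1), against 10.1% of all genes, and 6 were lower (Ifit1, Ifit3, Ifi35, Gbp7, H2-K1 and H2-D1), against 11.0%. The median log2 fold change, low minus high, was -0.0013 over the members and 0.04 over all genes tested. Above 0 were 17 of 34 members, against 54.1% of all genes. Mx1, among those above 0, reached the filter of a mean of 10 normalized counts only through its low-ratio group. In the authors' deposited table, 2 of 34 members passed an adjusted p of 0.05 in preadipocytes, Ifih1 and Ifi35, where 11.9% of 15470 genes did.

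In progenitors 0 of 33 members were called, where 0.0% of 15973 genes were called; Mx1 was under the filter of a mean of 10 normalized counts. At an unadjusted p under 0.05 there were 2 of 33 members (6.06%), against 6.88% of all genes: Ifitm1 was higher, where 3.77% of genes were, and Ifi27 lower, where 3.11% were. The groups did not overlap for the same pair of members, or 6.06% against 4.04% of all genes (2.03% higher and 2.02% lower). The median log2 fold change was -0.06 over the members and -0.0037 over all genes, with 11 of 33 members above 0 (33.3%) against 49.5% of all genes. None of the 33 members passed in the authors' deposited table for progenitors, where 0.581% of 17389 genes did. For the milk effect in preadipocytes minus that in progenitors, 0 of 33 members were called, where 2.28% of 15354 genes were called (0.625% higher and 1.65% lower). At an unadjusted p under 0.05 there were 2 of 33 members, or 6.06% against 17.6% of all genes: Ifih1 was higher, where 8.99% of genes were, and Ifi35 lower, where 8.62% were. The fold change of the difference was above 0 for 19 of 33 members (57.6%), against 54.1% of all genes. Of the 33 members tested in both populations, 7 had a fold change above 0 in both and 13 below 0 in both. Another 9 were above 0 in preadipocytes only and 4 in progenitors only.

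**Figure D2:**
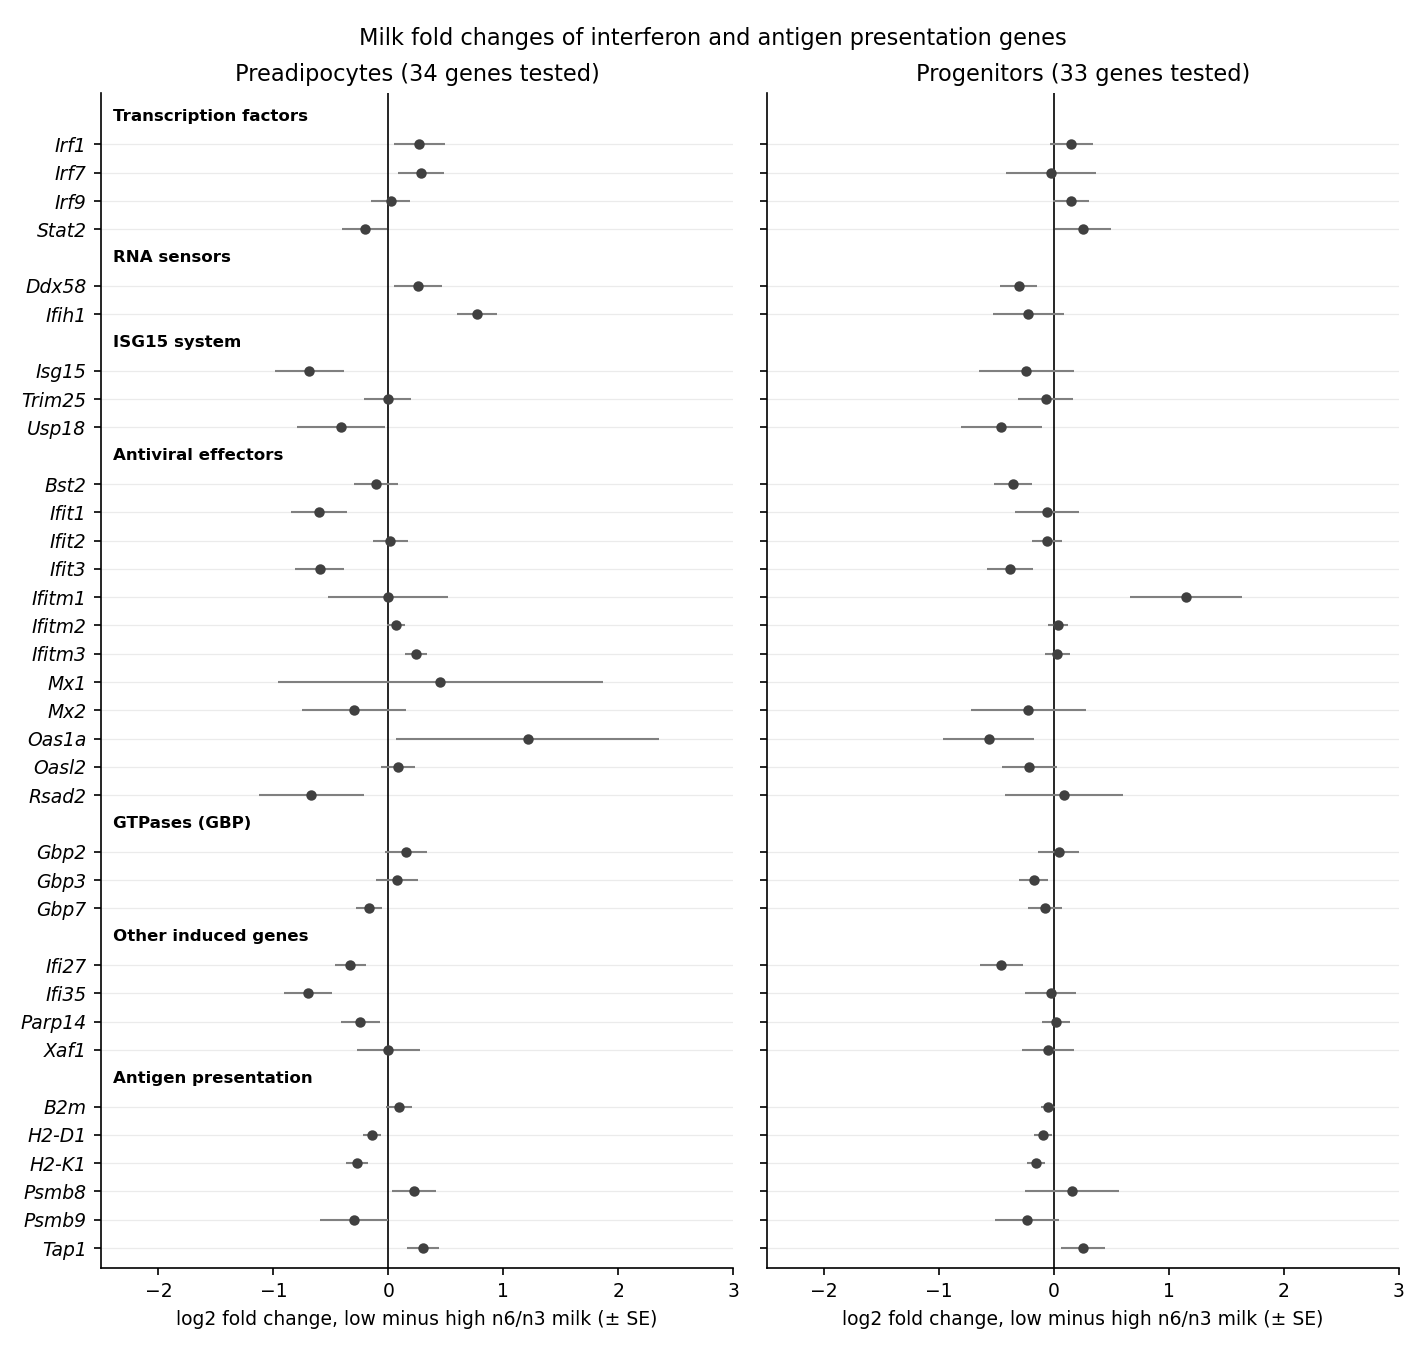
Log2 fold change, low minus high n6/n3 milk, of each gene with its standard error, in preadipocytes (34 genes tested) and progenitors (33 genes tested). Ifih1 stands at 0.77 in preadipocytes and -0.22 in progenitors, and Ifitm1 at 1.15 in progenitors. Oas1a stands at 1.21 in preadipocytes with a standard error of 1.14, and Ifi35, Isg15, Rsad2, Ifit1 and Ifit3 lie there at -0.70 to -0.60. The median absolute fold change was 0.25 in preadipocytes and 0.16 in progenitors.

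Among the transcription factors, Stat2, a transcription factor of the type I response, had 639, 862, 1016 and 620.4 normalized counts in preadipocytes on low-ratio milk and 939, 765 and 966 in those on high-ratio milk. In progenitors it had 1497, 672, 776 and 1039.8 on low-ratio milk and 701, 668, 842 and 1009 on high-ratio milk. The groups overlapped in both populations, and the log2 fold changes were -0.21 ± 0.20 (SE, adjusted p = 0.579, limma) and 0.26 ± 0.24 (adjusted p = 0.837). Irf7, which amplifies type I interferon production and is itself induced by interferon, had 379, 260.2, 275 and 321 in preadipocytes on low-ratio milk and 207, 266 and 283 on high-ratio milk. Progenitor values were 293, 184, 167 and 338 on low-ratio milk and 289.8, 252, 402 and 110.02 on high-ratio milk. The ranges overlapped in both, with fold changes of 0.29 ± 0.20 (adjusted p = 0.435, limma) and -0.02 ± 0.39 (adjusted p = 0.991). The progenitor library 1019 held the lowest Irf7 value of all, and the fold change in progenitors ranged over -0.39 (without library 1019) to 0.23 (without library 1018) when 1 library was left out. Irf1, a factor induced by interferon gamma, and Irf9, which binds DNA together with STAT2, had log2 fold changes of 0.02 to 0.27 over both populations, and their groups overlapped.

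Of the RNA sensors, Ifih1 (MDA5, which binds long double-stranded RNA in the cytosol) had the smallest p of the members in preadipocytes. It had 531, 455, 645 and 623 normalized counts on low-ratio milk, mean 563 ± 87.6 (SD, n = 4), and 366, 324 and 293 on high-ratio milk, mean 328 ± 36.6 (SD, n = 3). Every library on low-ratio milk lay above every library on high-ratio milk. The log2 fold change was 0.77 ± 0.17 (SE), and the adjusted p of 0.0525 in limma missed the threshold; in the authors' deposited table it was 0.000817. With the filter raised to a mean of 50, the adjusted p was 0.0436. In progenitors Ifih1 had 202, 499, 489.6 and 605 on low-ratio milk and 586, 472, 440.3 and 455 on high-ratio milk. There the groups overlapped, with a fold change of -0.22 ± 0.31 (adjusted p = 0.889, limma), and library 108 stood below the rest; without it the fold change was 0.12. The difference between populations was 0.99 ± 0.39 (adjusted p = 0.192, limma).

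Ddx58 (RIG-I, which binds RNA with a triphosphate end) had 577, 644, 728 and 442 normalized counts in preadipocytes on low-ratio milk and 388, 569.6 and 539 on high-ratio milk. The progenitor libraries had 609, 775, 486 and 671 on low-ratio milk and 871, 787, 663 and 798 on high-ratio milk. Its groups overlapped in both populations. The log2 fold changes were 0.26 ± 0.21 in preadipocytes (adjusted p = 0.51, limma) and -0.31 ± 0.16 in progenitors (adjusted p = 0.748). The difference between populations was 0.57 ± 0.27 (adjusted p = 0.29).

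Isg15, a ubiquitin-like protein that is joined to other proteins during the response and whose promoter holds 3 overlapping ISRE cores, had low counts. In preadipocytes it had 56.0, 49.5, 50.1 and 84.8 normalized counts on low-ratio milk and 128, 87.2 and 76.6 on high-ratio milk. Among progenitors it had 25.8, 45.0, 89.5 and 36.3 on low-ratio milk and 61.8, 55.4, 32.8 and 66.4 on high-ratio milk. Library 133 on low-ratio milk lay within the range of the high-ratio preadipocytes, and the other 3 lay below it. The log2 fold changes were -0.69 ± 0.30 (adjusted p = 0.23, limma) and -0.24 ± 0.41 (adjusted p = 0.916). Usp18, the protease that removes ISG15, and Trim25, a ubiquitin ligase that acts on RIG-I, had fold changes of -0.46 to -0.0037 over both populations, with overlapping groups.

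Of the antiviral effectors, the Ifit genes code for proteins that bind foreign RNA and are neighbours on chromosome 19. Ifit3 had 159.6, 208, 131 and 207 normalized counts in preadipocytes on low-ratio milk, mean 176 ± 37.6 (SD, n = 4), and 272, 248 and 268 on high-ratio milk, mean 263 ± 12.7 (SD, n = 3). The counts in progenitors were 137, 105, 164 and 164 on low-ratio milk and 189, 163, 186 and 194 on high-ratio milk. The preadipocyte groups did not overlap, while in progenitors library 1017 on high-ratio milk lay within the low-ratio range. The log2 fold changes were -0.60 ± 0.21 (adjusted p = 0.156, limma) and -0.38 ± 0.20 (adjusted p = 0.748). Ifit1 likewise lay lower without overlap in preadipocytes, at 108 to 174 on low-ratio milk and 178 to 266 on high-ratio milk (-0.61 ± 0.24, adjusted p = 0.195, limma). In progenitors Ifit1 was at 73.1 to 176 on low-ratio milk and 108 to 151 on high-ratio milk, with a fold change of -0.06. Ifit2 was at 0.02 in preadipocytes and -0.06 in progenitors. The table also holds near copies of Ifit genes. Reads shared between near copies leave the Ifit, Ifitm, Oas, Gbp, Ifi20x and class I values uncertain.

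Bst2 (tetherin, which holds budding virus at the cell surface) had 765, 746, 513 and 778 normalized counts in preadipocytes on low-ratio milk and 619.5, 856 and 778 on high-ratio milk. It had, in progenitors, 518, 487, 652 and 770.2 on low-ratio milk and 685, 718, 785 and 876 on high-ratio milk. The groups overlapped in both, with log2 fold changes of -0.11 ± 0.19 (adjusted p = 0.776, limma) and -0.35 ± 0.16 (adjusted p = 0.726). Without the preadipocyte library 119 the first of these was 0.036.

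Ifitm1, a membrane protein that hinders viral entry, was highest in library 119 in both populations. In preadipocytes it had 50.2, 62.2, 205 and 66.0 normalized counts on low-ratio milk, the third being library 119, and 139, 60.8 and 62.9 on high-ratio milk. In progenitors it had 53.3, 64.5, 289 and 85.3 on low-ratio milk, again highest in library 119, and 40.4, 44.1, 35.7 and 52.8 on high-ratio milk. The progenitor groups did not overlap, although library 108 at 53.3 and library 1019 at 52.8 nearly touched. The log2 fold change in progenitors was 1.15 ± 0.49 (adjusted p = 0.712, limma), and 0.62 without library 119. In preadipocytes it was -0.0031 ± 0.52 (adjusted p = 0.998), with a sign that turned on other scales, under quantile normalization and when single libraries were left out. The closely related Ifitm2 and Ifitm3, neighbours on chromosome 7, were among the most abundant members. Ifitm3 lay higher without overlap in preadipocytes, at 4988 to 5604 on low-ratio milk and 4117 to 4964 on high-ratio milk (0.24 ± 0.10, adjusted p = 0.192, limma), and at 0.03 in progenitors. Ifitm2 had fold changes of 0.06 and 0.03.

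The remaining effectors are Mx1, Mx2, Oas1a, Oasl2 and Rsad2 (viperin). They had log2 fold changes of -0.67 to 1.21 in preadipocytes and, without Mx1, -0.57 to 0.09 in progenitors, with overlapping groups throughout. Oas1a, at the upper end, had 6.93 to 33.0 normalized counts on low-ratio milk and 0 to 24.2 on high-ratio milk, where the zero was in the shallowest library, 1015. Mx1 carries inactivating mutations in C57BL/6 mice. In preadipocytes it had 0 to 43.3 on low-ratio milk and 0.974 to 23.9 on high-ratio milk. Its means there were 15.7 and 9.09, so its fold change of 0.45 is not independent of the filter.

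Of the other induced genes, Ifi35, which forms a complex with NMI, had 344, 343, 243 and 286 normalized counts in preadipocytes on low-ratio milk, mean 304 ± 49.0 (SD, n = 4), and 559, 565 and 370.2 on high-ratio milk, mean 498 ± 111 (SD, n = 3). The groups did not overlap, and library 1019 was the high-ratio library nearest to the low-ratio ones. The log2 fold change was -0.70 ± 0.21 (SE, adjusted p = 0.107, limma), and the adjusted p was 0.0365 without library 1019 and 0.0201 in the authors' deposited table. In progenitors Ifi35 had 197, 301, 178 and 309 on low-ratio milk and 245, 222, 222 and 292 on high-ratio milk. There the groups overlapped, at -0.03 ± 0.22 (adjusted p = 0.982, limma), and the difference between populations was -0.67 ± 0.31 (adjusted p = 0.279).

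Ifi27, a small mitochondrial protein gene strongly induced by type I interferon, had 1361, 1084, 946 and 1192 normalized counts in preadipocytes on low-ratio milk and 1356, 1469 and 1459.8 on high-ratio milk. Progenitor values were 454, 728, 756 and 871 on low-ratio milk, mean 702 ± 177 (SD, n = 4), and 1017, 897, 953 and 893 on high-ratio milk, mean 939.9 ± 58.2 (SD, n = 4). The preadipocyte groups touched through library 108, and the progenitor groups did not overlap. The log2 fold changes were -0.33 ± 0.14 (adjusted p = 0.208, limma) and -0.46 ± 0.19 (adjusted p = 0.703), and they did not pass a test of their difference (0.13 ± 0.25, adjusted p = 0.838). Xaf1 and Parp14 had fold changes of -0.24 to 0.02 over both populations, with overlapping groups. The guanylate-binding proteins Gbp2, Gbp3 and Gbp7, GTPases that attack the membranes of intracellular microbes, had fold changes of -0.18 to 0.15. Gbp7 had non-overlapping groups in preadipocytes, at 670 to 756 on low-ratio milk and 792 to 809 on high-ratio milk (-0.17 ± 0.11, adjusted p = 0.405, limma).

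**Figure D3:**
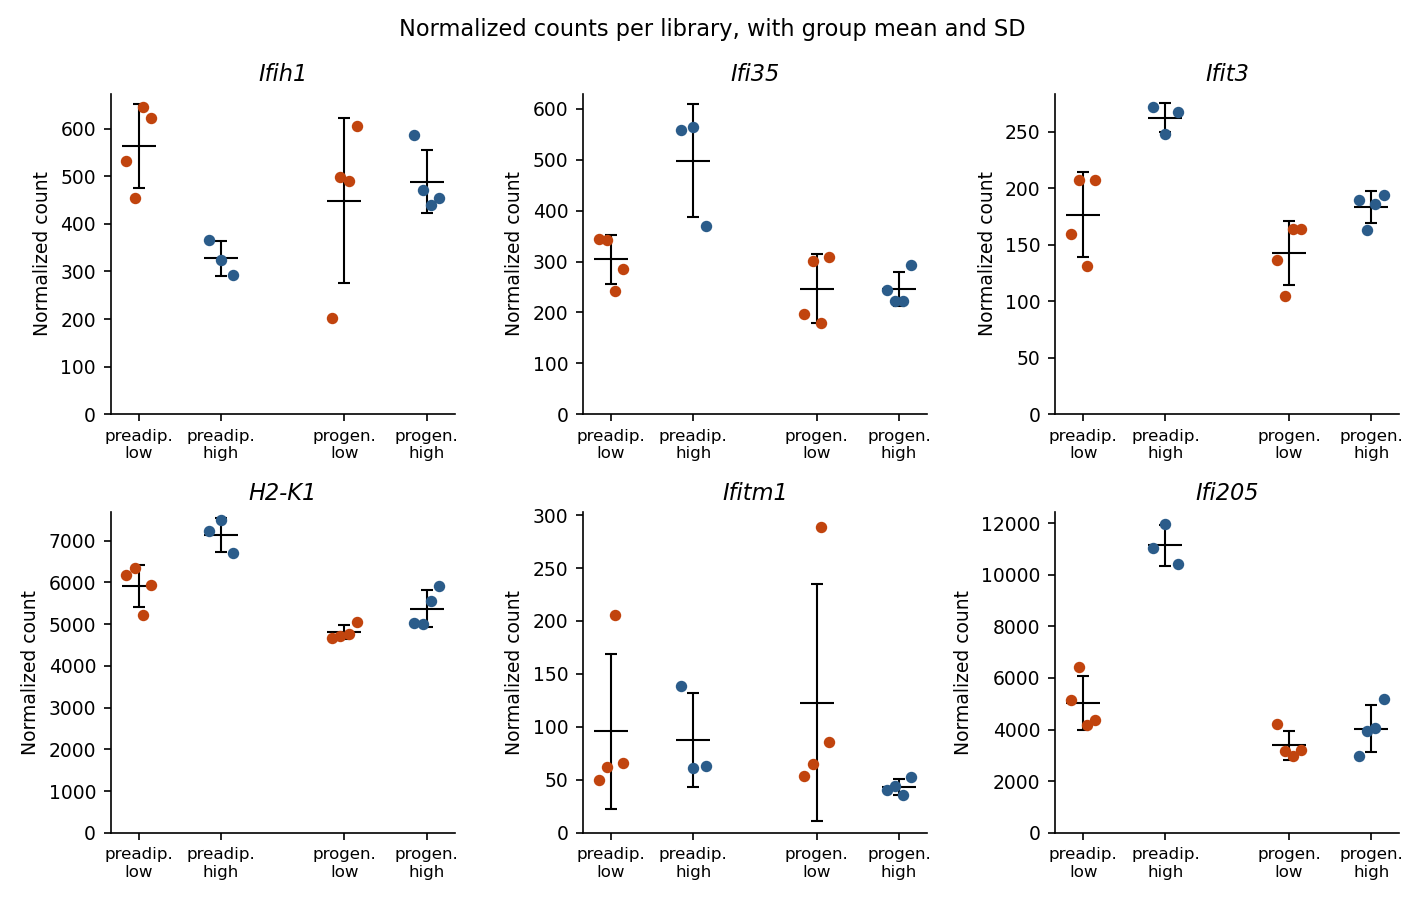
Normalized counts of 6 genes in each library (points) with the group mean and SD (black), low-ratio milk in red left of high-ratio milk in blue, in preadipocytes and progenitors, whose tables were normalized separately. Ifih1 lies higher and Ifi35, Ifit3, H2-K1 and Ifi205 lower on low-ratio milk in preadipocytes without overlap, and Ifitm1 is highest in library 119 in both populations.

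For antigen presentation, B2m, the light chain of every class I molecule, was the most abundant member. Its residual SD on the log2 scale was 0.15 in preadipocytes and 0.05 in progenitors, against member medians of 0.26 and 0.31. H2-D1 (0.04) and Ifitm2 (0.05) were among those that varied less in preadipocytes. B2m had 14973, 17466, 16687 and 16509.9 normalized counts in preadipocytes on low-ratio milk and 13131, 16218 and 17052 on high-ratio milk. The progenitor libraries had 15790.4, 14879, 15203 and 15044 on low-ratio milk and 15011, 15347, 16164 and 16538 on high-ratio milk. The groups overlapped, with log2 fold changes of 0.09 ± 0.11 (adjusted p = 0.663, limma) and -0.05 ± 0.06 (adjusted p = 0.877).

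The heavy chain gene H2-K1 had 6181, 6346, 5211 and 5945 normalized counts in preadipocytes on low-ratio milk, mean 5921 ± 501 (SD, n = 4), and 7227, 7490.3 and 6702 on high-ratio milk, mean 7139.9 ± 401 (SD, n = 3). Among progenitors it had 4667, 4717, 4773 and 5045 on low-ratio milk and 5016, 4991, 5555 and 5911 on high-ratio milk. The preadipocyte groups did not overlap, and in progenitors only library 133 on low-ratio milk reached the high-ratio range. The log2 fold changes were -0.27 ± 0.10 (adjusted p = 0.155, limma) and -0.16 ± 0.08 (adjusted p = 0.746). H2-D1, the other classical heavy chain gene of this strain, lay lower without overlap in preadipocytes, at 8083 to 8687 on low-ratio milk and 8985 to 9434 on high-ratio milk (-0.14 ± 0.08, adjusted p = 0.315, limma), and at -0.10 in progenitors. In bulk RNA, fewer cells that express a gene and less RNA per cell cannot be told apart. Tap1, a subunit of the transporter that carries peptides into the endoplasmic reticulum, lay higher without overlap in preadipocytes, at 558 to 622 on low-ratio milk and 434 to 552 on high-ratio milk (0.30 ± 0.14, adjusted p = 0.238, limma), and at 0.25 in progenitors. Psmb8 and Psmb9, subunits of the immunoproteasome whose genes flank Tap1 on chromosome 17, had fold changes of 0.22 and -0.30 in preadipocytes and of 0.16 and -0.24 in progenitors, with overlapping groups.

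The rest of the pathway was described from 112 other genes in 7 lists. In preadipocytes 91 of them were tested; 2 were called lower and 0 higher, against 2.35% and 0.535% of all genes. In progenitors 89 were tested and 0 were called in either direction, and for the difference between populations 89 were tested and 0 were called. At an unadjusted p under 0.05 there were 20, 7 and 16 genes in these 3 comparisons, of 91, 89 and 89 tested, against 21.7%, 6.88% and 17.6% of all genes. The groups did not overlap for 18 genes in preadipocytes (19.8%, 6 higher and 12 lower) and for 4 in progenitors (4.49%, all lower), against 21.1% and 4.04% of all genes. Both genes called in preadipocytes belong to the PYHIN (IFI200) family, some members of which bind DNA in the cytosol. The family's Ifi203 and Aim2 were not called there, and their groups overlapped. Their fold changes were -0.44 (adjusted p = 0.171, limma) and 0.42 (adjusted p = 0.855). Ifi205 had 5152, 6442, 4173 and 4362 normalized counts on low-ratio milk, mean 5032 ± 1031 (SD, n = 4), and 11025, 11977 and 10409 on high-ratio milk, mean 11137 ± 790.1 (SD, n = 3). Ifi204 had 2922, 3299, 2645 and 2658 on low-ratio milk and 4213, 4559.8 and 4271 on high-ratio milk. Every low-ratio library lay below every high-ratio library for both genes. Ifi205 fell by 1.17 ± 0.15 on the log2 scale (SE, adjusted p = 0.0204, limma) and Ifi204 fell by 0.60 ± 0.10 (adjusted p = 0.0347). In progenitors the groups overlapped, with fold changes of -0.24 ± 0.17 for Ifi205 (adjusted p = 0.769, limma) and -0.03 ± 0.16 for Ifi204 (adjusted p = 0.968). The differences between populations were -0.93 ± 0.25 (adjusted p = 0.0619) and -0.56 ± 0.20 (adjusted p = 0.158).

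Both calls depended in part on the processing. They were kept on the deposited scale and with the other pseudocounts, filters and library scalings. No alternative turned the sign of either fold change in preadipocytes, but some settings lost the calls. Without limma's trend and robust options the adjusted p was 0.0888 for Ifi205 and 0.0999 for Ifi204. After removal of each library's trend on GC content and length, the log2 fold change was -0.66 for Ifi205 (adjusted p = 0.0657, limma) and -0.18 for Ifi204 (adjusted p = 0.366). Their transcripts have GC contents of 37.6% and 39.5%, against a median of 50.3% over all genes tested. Ifi205 was called without library 114 and without library 1019, but not without 108, 119, 133, 1015 or 1017 (adjusted p of 0.0519 to 0.0861). Ifi204 was called without library 1019 and in none of the other 6 leave-one-out fits (0.0577 to 0.124). Both were called in the authors' deposited table, at 6.86e-08 and 0.000109.

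Of the other pathway genes, the next smallest p-values in preadipocytes belonged to Nmi and Ifi47. Nmi, the partner of IFI35, had 405, 419, 321 and 337 normalized counts on low-ratio milk and 807, 719 and 507 on high-ratio milk, without overlap (-0.85 ± 0.20, adjusted p = 0.0556, limma). Its adjusted p was 0.0467 with the filter at a mean of 50 and 0.015 without library 1019. Ifi47, a GTPase of the immunity-related family, had 63.9, 84.7, 58.8 and 60.8 on low-ratio milk and 124, 199 and 123 on high-ratio milk, also without overlap (-1.12 ± 0.27, adjusted p = 0.061, limma). In progenitors both overlapped, at 0.13 ± 0.24 for Nmi and 0.28 ± 0.39 for Ifi47. Cmpk2, a mitochondrial nucleotide kinase, had almost the same p as Ifi47 and lay in the other direction, higher without overlap (0.97 ± 0.23, adjusted p = 0.061, limma); it is named after its values were seen. In the authors' deposited table for preadipocytes, the adjusted p was 0.0012 for Nmi, 0.00218 for Ifi47 and 0.00283 for Cmpk2.

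In progenitors the smallest p-values belonged to Lgals3bp, Ifi27l2a, Adar and Tlr7. Lgals3bp, a secreted glycoprotein, had 3710.3, 4296, 4391 and 5389 normalized counts on low-ratio milk and 6666, 5429.5, 6665 and 6073 on high-ratio milk (-0.49 ± 0.12, adjusted p = 0.563, limma). Ifi27l2a, a relative of Ifi27, had 307, 396, 223 and 424 on low-ratio milk and 485, 471, 656 and 665 on high-ratio milk (-0.78 ± 0.23, adjusted p = 0.591). These groups did not overlap, and in preadipocytes Ifi27l2a also lay lower without overlap, at 199.9 to 779 on low-ratio milk and 1312 to 1512 on high-ratio milk (-1.49 ± 0.42, adjusted p = 0.0917, limma). The authors' deposited adjusted p for Ifi27l2a in preadipocytes was 0.00832. Adar edits double-stranded RNA. It had 684, 786, 677 and 684 on low-ratio milk and 825, 1026, 949 and 895 on high-ratio milk (-0.38 ± 0.11, adjusted p = 0.591). In preadipocytes the groups overlapped for Adar (0.21 ± 0.19, adjusted p = 0.56, limma). They also overlapped there for Lgals3bp (-0.03 ± 0.12, adjusted p = 0.891, limma). Tlr7, an endosomal RNA sensor, had 14.1, 3.59, 135 and 44.4 on low-ratio milk and 1.55, 3.28, 0 and 4.38 on high-ratio milk, highest in library 119 (3.21 ± 1.06, adjusted p = 0.655, limma). In the authors' deposited table its log2 fold change in progenitors was 4.34 with an adjusted p of 0.0147. In preadipocytes Tlr7 had 0, 4.01, 0 and 1.62 on low-ratio milk and 78.1, 3.44 and 4.48 on high-ratio milk, where library 1015 alone stood out (-2.71 ± 1.24, adjusted p = 0.247, limma). The difference between populations was -5.92 ± 1.66 (adjusted p = 0.0753, limma), and at such counts a fitted fold change depends on the pseudocount. Tlr7 also reached the filter of a mean of 10 only through its higher group. That group averaged 28.7 in preadipocytes (high-ratio milk) and 49.3 in progenitors (low-ratio milk), and the other 1.41 and 2.30. Its fold changes and p-values are therefore not independent of the filter.

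For the difference between populations, the smallest p-values were those of Ifi205 and Tlr7, then Iigp1 and Pdia3. Iigp1, another immunity-related GTPase, had 418, 581, 686 and 488 normalized counts in preadipocytes on low-ratio milk and 862, 783 and 696 on high-ratio milk. Its progenitor counts were 428, 311, 380.3 and 348 on low-ratio milk and 299, 308, 294 and 367 on high-ratio milk. The groups did not overlap in preadipocytes and overlapped in progenitors, and the difference was -0.75 ± 0.23 (adjusted p = 0.108, limma). Pdia3 (ERp57), which helps load peptides onto class I molecules, had 21759, 20638, 22899.5 and 24474 in preadipocytes on low-ratio milk and 14955, 17496 and 18731 on high-ratio milk. Its progenitor counts were 21519, 23286, 22054 and 19935 on low-ratio milk and 19979.5, 21823, 21297 and 22873 on high-ratio milk. Again the groups overlapped in progenitors only, and the difference was 0.39 ± 0.12 (adjusted p = 0.108, limma). In the authors' deposited table for preadipocytes, the adjusted p was 0.0776 for Iigp1 and 0.0216 for Pdia3. The list medians lay between -0.24 (GTPases) and 0.15 (signal transduction) in preadipocytes and between -0.22 (other interferon-stimulated genes) and 0.13 (GTPases) in progenitors. Of 12 ligand and receptor genes, 5 reached the filter. MHC class II genes mark professional antigen-presenting cells. Of 10 listed, H2-Oa and H2-Ob were absent or at 0. The list summed to 351 to 721 in preadipocytes on low-ratio milk and 455 to 627 on high-ratio milk. In progenitors it summed to 445 to 1492 on low-ratio milk and 712 to 931 on high-ratio milk.

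**Figure D4:**
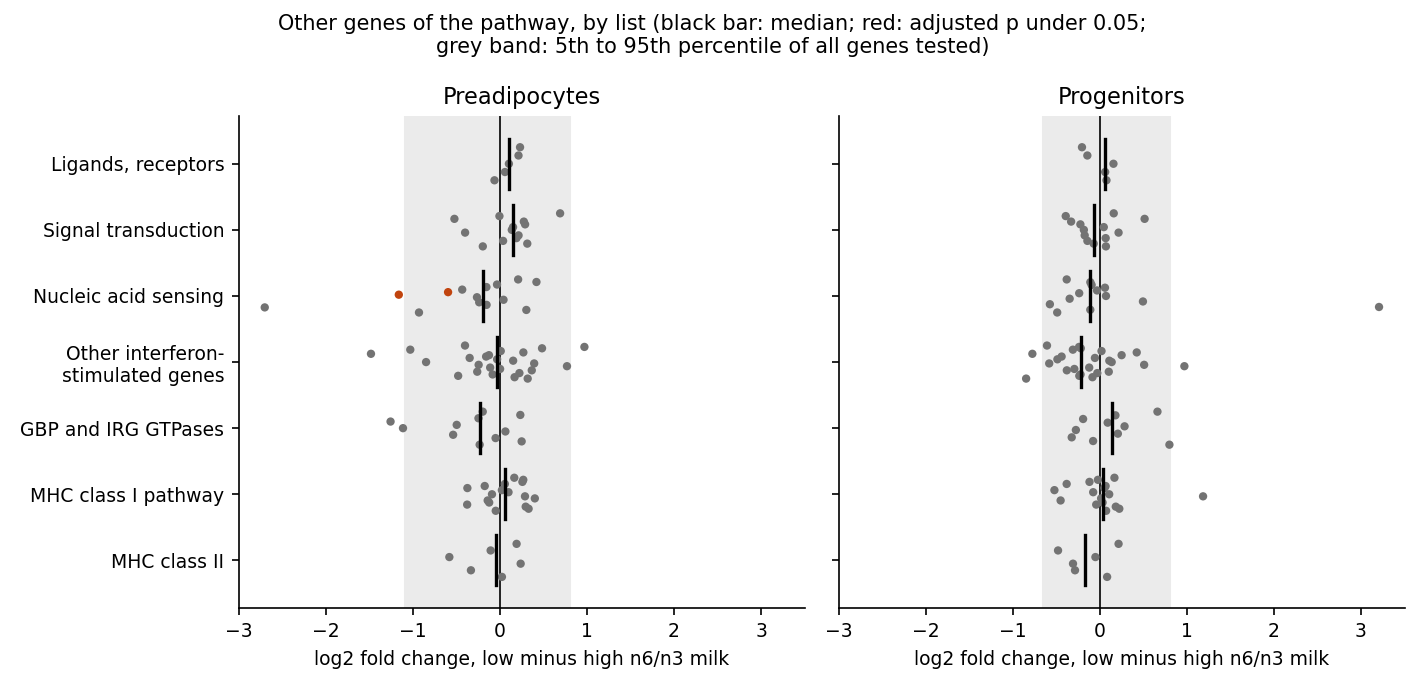
Log2 fold change, low minus high n6/n3 milk, of each tested gene in 7 lists of other pathway genes, in preadipocytes (91 genes) and progenitors (89 genes), with the list median as a bar and the 5th to 95th percentile of all genes tested as a grey band. The 2 genes called, Ifi204 and Ifi205, are in red in the preadipocyte panel, and no gene was called in progenitors.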

How the data were processed

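Libraries of sorted cells were made with the NuGEN kit Universal Plus mRNA (per the labels' protocols). Salmon 0.14.2, DESeq2 1.28.1, mm10 and GRCm38 appear in the submitters' processing notes. Neither strand setting nor annotation release is given in the sources used here. The deposited values, 1 table per population, are on the log2-like variance stabilized scale and the authors normalized the 2 tables separately. They also deposited, per gene, a p-value, its adjusted form and a log2 fold change, used as a second source. Normalized counts were recovered by inverting that scale; over 11076 genes in preadipocytes and 11164 in progenitors with a mean of at least 100, group means differed from the authors' fold changes by a median of 0.00304 and 0.000751. The file holds no totals, so depth was estimated from the steps between low values; 43.3% to 56.5% of low values were whole multiples of 1 read (tolerance 0.05), so whole reads were not recovered and the depth is a rough guide.

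Genes with a mean normalized count of at least 10 were tested on log2(normalized count + 1) with limma 3.58.1 (trend and robust) in R 4.3.3, per table, with Benjamini-Hochberg adjustment over all genes and a threshold of 0.05. A count test was not run because the tables hold no counts. For low genes a fold change on this scale can lie on either side of the authors'. It was 1.21 here and 0.38 in the authors' deposited table for Oas1a in preadipocytes, where 1 high-ratio library was at 0. For Tlr7 in progenitors it was 3.21 here and 4.34 there. The milk effect in preadipocytes minus that in progenitors was tested over all 15 libraries. The procedure was tested on simulated data. These had the same dispersion for all genes of a population and no trend on GC content or length. They therefore cannot speak to the dependence on processing given below. Names, GC content and length came from GENCODE M21, and promoters from RefSeq. The members and lists were chosen with earlier results of these data known, and no test was run over a list. Given in full are members or pathway genes past the threshold, the 4 with the smallest p in each comparison, and Stat2, Irf7, Isg15, B2m and H2-K1; other members are given by range, and other pathway genes by counts. Alternatives covered the scale, pseudocount, filter, library scaling, GC and length trend, limma options, each library left out and the library number as a block; the authors' adjusted p-values were added after seeing the data.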

Additional observations from a re-analysis of the deposited data

Results flagged for a closer look

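In groups of 4 libraries, 7 of 102 group and gene pairs over the members had 1 library far from the other 3, its gap over the group's range being above Dixon's 95% critical value; chance alone gives about 1 in 20. In preadipocytes on low-ratio milk, library 119 was low for Bst2 at 513.1 normalized counts and high for Ifitm1 at 205.4. In progenitors on low-ratio milk, library 119 was high for Ifitm1 at 289 and low for Usp18 at 32.41, library 114 was low for Irf9 at 719.1, and library 108 was high for Mx1 at 17.93. In progenitors on high-ratio milk, library 1017 was high for Rsad2 at 150.7.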

How the results depend on the processing

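For named genes, 897 of 941 results of the alternatives kept direction and side of the threshold, 15 lost it, 8 gained it and 21 turned sign. All 15 losses were of Ifi205 and Ifi204 in preadipocytes, the only calls among the named genes. The rest were not called to begin with, so that they stayed uncalled says little. Genes called in preadipocytes (458, of them 85 higher and 373 lower) came to 12 with the GC and length trend removed (9 higher), 6 without limma's trend and robust options (3 higher), 1834 in the authors' table (690 higher) and 2 to 1159 in leave-one-out fits, the most without high-ratio library 1019. Members called there came to 1 with the filter at 50, 2 in the authors' table and 0 to 1 on leaving out a library; their median ranged over -0.13 to 0.025. Genes called in progenitors came to 101 in the authors' table and 0 to 3 in leave-one-out fits. For the difference between populations (350 genes called), 137 were called with the GC and length trend removed, 153 without the limma options and 70 to 849 in leave-one-out fits, where the members' median ranged over -0.079 to 0.10. The cause was not tested.

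Libraries of the 2 populations share numbers. Deviations of same-numbered libraries correlated at -0.06 to 0.09 over 15354 genes and at -0.34 to 0.41 over 33 members. The labels do not say whether the numbers pair the libraries, and they were not taken to pair them. With the library number as a replicate block 43 genes were called, and 0 with the block and the GC and length trend removed.

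Signs turned for preadipocyte Ifitm1 on the deposited scale (0.017), with a pseudocount of 10 (0.0053), with quantile normalization (0.087), with the GC and length trend removed (0.0099) and in leave-one-out fits (-0.45 to 0.38). In leave-one-out fits they turned for preadipocyte Bst2 (-0.24 to 0.036) and B2m (-0.021 to 0.17), for progenitor Ifih1 (-0.40 to 0.12), Ifi35 (-0.15 to 0.11), Irf7 (-0.39 to 0.23) and Isg15 (-0.57 to 0.012), and for the difference in Ifi27 (-0.068 to 0.25). Mx1 and Oas1a in both populations, Rsad2 in preadipocytes and Mx2 in progenitors averaged under 50 normalized counts.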

Other observations

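Ly6a, the gene of the stem cell antigen Sca-1, is a precursor marker in fat and is also known to be induced by interferon in mouse cells. It was singled out after its values were seen, and it went against most of its list: 6 of the 8 precursor markers lay above 0 in preadipocytes, with a median of 0.25. In preadipocytes it had 16669 to 22891 normalized counts on low-ratio milk and 25191 to 31443 on high-ratio milk, without overlap, and differed by -0.49 ± 0.13 on the log2 scale (SE; adjusted p = 0.0825, limma). In progenitors it had 16210 to 19367 on low-ratio milk and 17978 to 22685 on high-ratio milk, with overlap, and a fold change of -0.17 ± 0.09 (adjusted p = 0.748, limma). The difference between populations was -0.32 ± 0.16 (adjusted p = 0.311, limma).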
